A study of Sus scrofa with 6 samples.

Results

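The genes of dopamine handling measured in porcine midbrain-like organoids (pMLOs) were TH, DDC, SLC18A2, SLC6A3, DRD2, RET and ALDH1A1. They were chosen by symbol for their known roles, though with earlier results of these data known. All 7 were found among the 30477 genes of the deposited single-cell matrices. The organoids were grown from 1 line of embryonic stem cells, IVF_1_ pESC_FIW. Aggregates were grown in N2B27 medium with SB431542, Noggin, SHH-C24II and CHIR99021, FGF8 was added later, and B27 medium with FGF8, BDNF and ascorbic acid followed. Embedding in Matrigel and culture on a shaker with BDNF, GDNF, ascorbic acid, db-cAMP and DAPT came after D11. The D11 organoids thus had BDNF and ascorbic acid, but no Matrigel, shaker, GDNF, db-cAMP or DAPT. No genotype or drug was compared within an age, and age cannot be told apart from embedding and medium between D11 and the later groups. Organoids were dissociated on day 11 (D11), day 28 (D28) and day 45 (D45), and 2 libraries, replicates A and B, were made at each age. The study describes the replicates as biological duplicates. With 1 cell line, the p-values below measure only the spread between such libraries. Those for TH status measure only how the contrast within a library varied between libraries.

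Dopamine is made from tyrosine in a short chain. Tyrosine hydroxylase, encoded by TH, makes L-DOPA in the rate-limiting step and needs tetrahydrobiopterin, which GCH1, PTS and SPR make and QDPR and PCBD1 recycle. The decarboxylase encoded by DDC turns L-DOPA into dopamine, and also makes serotonin in other neurons. The vesicular transporter VMAT2, encoded by SLC18A2, loads dopamine and other monoamines into vesicles, and the plasma membrane transporter encoded by SLC6A3 takes dopamine back from the synapse. DRD2 encodes a receptor that also serves as an autoreceptor on dopamine neurons. RET encodes the signalling receptor for GDNF, a factor in the culture medium after D11, and is also used by motor neurons and by sympathetic and enteric neurons. ALDH1A1 encodes an aldehyde dehydrogenase that marks a subset of midbrain dopamine neurons and also makes retinoic acid in other cells. A gene such as TH alone therefore does not define a dopamine neuron, and the co-detection of the 7 genes in the same cells is the question treated here.

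In the RefSeq annotation of Sscrofa11.1, the assembly the reads were aligned to, TH lies on chromosome 2 from 1499628 to 1506180 on the minus strand, with 13 exons. DDC lies on chromosome 9 from 136496364 to 136571220 on the minus strand, and DRD2 on the same chromosome and strand from 41068618 to 41135262. SLC18A2 lies on chromosome 14 from 127357605 to 127394242 on the plus strand, and RET on the same chromosome and strand from 61305818 to 61361416. SLC6A3 lies on chromosome 16 from 79186114 to 79220302 on the plus strand, and ALDH1A1 on chromosome 1 from 226163347 to 226217342 on the minus strand. None of the 7 overlapped another annotated gene on either strand, although the annotation behind the deposited counts is not given and may differ.

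The 250 bases before the annotated start were searched on both strands for a cAMP response element (TGACGTCA), the NR4A2 binding motif NBRE (AAAGGTCA), a FOXA core (TGTTTAC) and a TATA box (TATAAA). The medium after D11 held db-cAMP, and NR4A2 and FOXA factors act in the dopaminergic lineage, which is why these motifs were looked for. The TH and SLC18A2 promoters are shown because they were the only 2 of the 7 with any match. Both are read on the gene's own strand, 5′ to 3′, from chr2:1506181-1506430 (minus strand) and chr14:127357355-127357604 (plus strand), and capitals mark the matches.

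TH: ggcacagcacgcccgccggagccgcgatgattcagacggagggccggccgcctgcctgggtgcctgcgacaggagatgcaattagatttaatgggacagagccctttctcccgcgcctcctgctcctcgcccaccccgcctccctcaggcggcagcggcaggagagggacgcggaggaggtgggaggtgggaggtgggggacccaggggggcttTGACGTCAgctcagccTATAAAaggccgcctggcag
SLC18A2: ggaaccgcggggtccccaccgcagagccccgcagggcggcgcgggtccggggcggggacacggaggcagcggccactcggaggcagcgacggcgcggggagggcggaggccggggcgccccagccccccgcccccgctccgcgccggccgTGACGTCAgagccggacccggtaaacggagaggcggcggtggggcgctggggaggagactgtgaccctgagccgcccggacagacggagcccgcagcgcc

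The TH promoter held the cAMP response element 36 to 29 bases before the start and a TATA box 20 to 15 bases before it. The SLC18A2 promoter held the cAMP response element 100 to 93 bases before the start. Over 19558 promoters of the same length, 1.70% held the cAMP response element, 0.839% the NBRE, 2.28% the FOXA core and 9.77% the TATA box. GC content was 68.4% in the TH promoter and 80.8% in that of SLC18A2. These matches describe the letters of the window and say nothing about binding.

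The libraries held 102940 cells after filtering, between 13870 and 21553 each, with 106805311 to 180034791 UMIs per library. A UMI marks 1 captured mRNA molecule. Depth per cell differed, with a median of 10757 and 8845 UMIs on D11 (replicates A and B), 5505 and 8130 on D28, and 2300.5 and 4341 on D45. D45 replicate A stood apart as the shallowest, with 52.0% of its cells at 2000 UMIs or more against 60.2% to 88.7% in the other libraries. A gene is detected more readily in a deeper cell. Shares of cells below were therefore read after each cell with at least 2000 UMIs (69529 cells) was thinned at random to 2000 UMIs. Unthinned shares are given as well for TH and for some of the other genes. In all, 1206 barcodes of kept cells occurred in more than 1 library.

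Over whole organoids, the synthesis and transport genes were lower on D11 than on D28 in every library. Levels are given in CPM, a gene's UMIs divided by all UMIs of the same cells and scaled to a common total. TH, the first enzyme, stood at 11.5 and 14.0 CPM on D11 (replicates A and B), 55.1 and 32.5 CPM on D28, and 17.1 and 40.4 CPM on D45. DDC stood at 16.1 and 17.8 CPM on D11, 64.1 and 70.7 CPM on D28, and 17.2 and 48.2 CPM on D45. For both enzymes the D11 libraries lay below all other libraries of TH and below both D28 libraries of DDC, while D45 replicate A was low and D45 replicate B was within or near the D28 range.

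SLC18A2, the vesicular transporter, stood at 0.777 and 0.805 CPM on D11, 4.29 and 6.57 CPM on D28, and 4.16 and 6.83 CPM on D45. SLC6A3, the reuptake transporter, stood at 0.354 and 0.294 CPM on D11, 2.56 and 1.34 CPM on D28, and 0.558 and 1.69 CPM on D45. Both were lower in each D11 library than in each later library. The D28 and D45 values overlapped for both transporters.

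DRD2 stood at 5.74 and 4.76 CPM on D11, 5.73 and 6.34 CPM on D28, and 13.9 and 19.6 CPM on D45, so both D45 libraries lay above all others. RET stood at 8.38 and 9.15 CPM on D11, 12.7 and 12.4 CPM on D28, and 10.4 and 15.0 CPM on D45. ALDH1A1 stood at 0.190 and 0.183 CPM on D11, 12.1 and 5.16 CPM on D28, and 0.811 and 4.44 CPM on D45. As a ratio of the highest to the lowest library, RET thus kept the narrowest range of the 7, and ALDH1A1 the widest. In sums over an organoid, fewer cells of a type and less RNA per cell cannot be told apart.

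**Figure D1:**
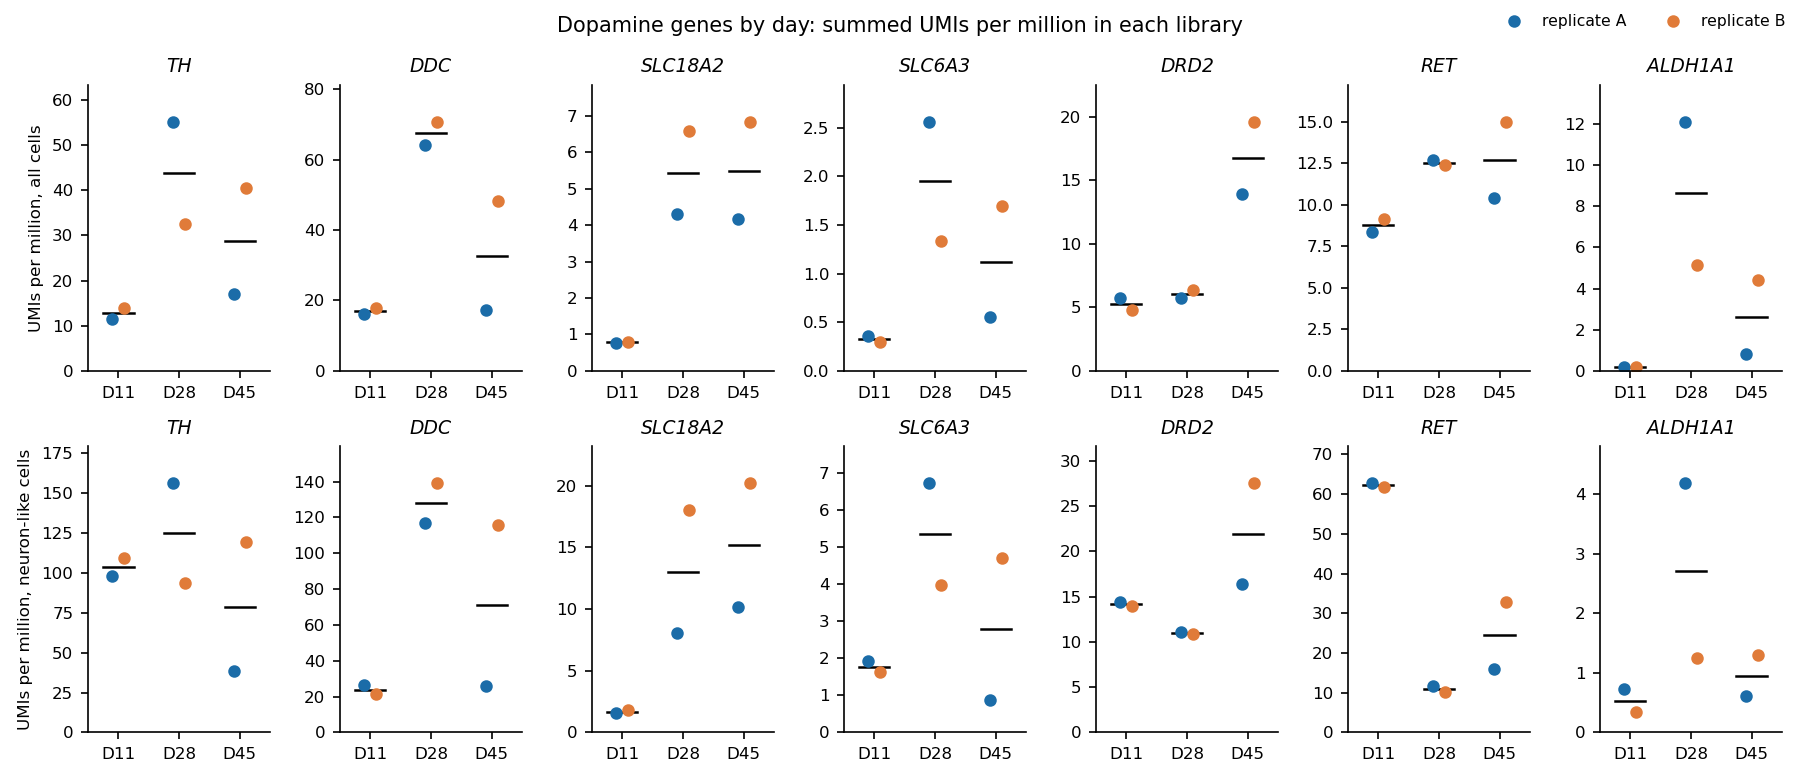
Levels of the 7 genes in each library, in CPM on axes that start at 0, over whole organoids and over neuron-like cells, with 1 point per library on D11, D28 and D45 and a black line at the mean of each day. SLC18A2 sits below 1 CPM in both D11 organoid libraries and above 4 CPM in all later ones, and RET in neuron-like cells is at 62.7 and 61.7 CPM on D11 and at 11.8 and 10.1 CPM on D28.

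The sums of each library were tested by age in edgeR (quasi-likelihood, Benjamini-Hochberg adjusted over 22192 genes, threshold 0.05). Between D11 and D28, 4 of the 7 genes rose and none fell, where 12.5% of all tested genes rose and 10.6% fell. SLC18A2 rose by a log2 fold change of 2.49 ± 0.343 (SE, adjusted p = 0.00383), ALDH1A1 by 5.32 ± 0.951 (adjusted p = 0.00966), SLC6A3 by 2.37 ± 0.634 (adjusted p = 0.0374) and DDC by 1.73 ± 0.449 (adjusted p = 0.0338). TH differed by 1.55 ± 0.480, which did not pass (adjusted p = 0.0574), and the differences of RET (0.26) and DRD2 (−0.06) did not pass either.

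These calls differ in how far they rest on single libraries. Only SLC18A2 passed under every alternative, while without D11 replicate A or without D11 replicate B the count dropped from 4 genes to 1. DDC then had an adjusted p of 0.178 or 0.129, SLC6A3 of 0.172 or 0.178, and ALDH1A1 of 0.0712 or 0.0669. TH passed without D28 replicate B (log2 fold change 1.96, adjusted p = 0.00390), without D45 replicate A (adjusted p = 0.0465), without D45 replicate B (adjusted p = 0.0462), after thinning (2.00, adjusted p = 0.0224) and in DESeq2 (adjusted p = 0.00789). The count was then 5 genes in each of these.

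From D28 to D45, 1 of the 7 genes rose, where 4.47% of all genes rose and 4.93% fell. That gene was DRD2, at a log2 fold change of 1.33 ± 0.251 (adjusted p = 0.0266). The call was lost without D11 replicate A or B (adjusted p = 0.0717 and 0.0713), without D45 replicate A (1.59, adjusted p = 0.0942), without D45 replicate B (1.02, adjusted p = 0.155) and after thinning (1.08, adjusted p = 0.0820). TH differed by −0.78 (adjusted p = 0.297) and DDC by −1.17 (adjusted p = 0.126), neither of which passed. With both libraries of D45 so far apart for these enzymes, a change between D28 and D45 was not resolved. Without D28 replicate B, 4 genes passed.

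Between D11 and D45, 3 of the 7 genes rose, where 17.3% of all genes rose and 17.4% fell. They were SLC18A2 (log2 fold change 2.39 ± 0.341, adjusted p = 0.00261), DRD2 (1.27 ± 0.250, adjusted p = 0.00860) and ALDH1A1 (3.43 ± 0.889, adjusted p = 0.0239). DRD2 and ALDH1A1 lost the call without D11 replicate A (adjusted p = 0.0538 and 0.108), D11 replicate B (0.0823 and 0.111) or D45 replicate B (0.0664 and 0.132), which left SLC18A2 alone. Without D45 replicate A, D28 replicate A or D28 replicate B, 4 genes passed.

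The rest of the pathway moved in part with these genes. Among the 7 synthesis and cofactor genes, DDC and PTS, an enzyme of tetrahydrobiopterin synthesis, rose between D11 and D28, and SPR, another enzyme of that synthesis, fell, where 12.5% of all genes rose and 10.6% fell. PTS stood at 6.16 and 5.82 CPM on D11 and at 17.8 and 13.6 CPM on D28, while GCH1, which catalyses the first step of that synthesis, stood between 5.24 and 8.42 CPM in all libraries. All 3 transport genes rose between D11 and D28, the third being SLC18A1, the vesicular transporter of endocrine cells. In the breakdown list, ALDH1A1 rose. MAOB, a monoamine oxidase, stood at 44.7 and 47.1 CPM on D11 and at 117 and 74.9 CPM on D28.

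DRD2 had more UMIs than the other dopamine receptor genes in every library, on a 3′ UMI scale that does not grow with transcript length. DRD3 reached at most 0.707 CPM, DRD1 at most 0.0630 CPM and DRD4 at most 0.00845 CPM, and DRD5 had 0 UMIs. Of the GDNF receptor genes, the co-receptor GFRA1 rose from D28 (14.8 and 14.7 CPM) to D45 (38.6 and 35.3 CPM). DBH, which turns dopamine into noradrenaline, reached at most 0.994 CPM in any library, and PITX3, a factor of mature midbrain dopamine neurons, at most 0.300 CPM.

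Clusters were made without any of the 7 genes, and clusters with enough neuron markers (among them STMN2, DCX, ELAVL3 and TUBB3) were pooled as neuron-like cells. Within those cells TH was already high on D11, at 97.7 and 109 CPM, against 156 and 93.3 CPM on D28 and 38.4 and 119 CPM on D45. DDC stood at 26.3 and 21.6 CPM on D11, 117 and 139 CPM on D28, and 26.1 and 116 CPM on D45. SLC18A2 stood at 1.58 and 1.78 CPM on D11, 8.06 and 18.0 CPM on D28, and 10.2 and 20.2 CPM on D45. The TH ranges of D11 and D28 overlapped, whereas those of DDC and SLC18A2 did not.

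RET in neuron-like cells went the other way, at 62.7 and 61.7 CPM on D11, 11.8 and 10.1 CPM on D28, and 16.0 and 32.8 CPM on D45. DRD2 stood at 14.4 and 14.0 CPM on D11, 11.1 and 10.9 CPM on D28, and 16.4 and 27.5 CPM on D45. SLC6A3 stood at 1.92 and 1.64 CPM on D11, 6.73 and 3.99 CPM on D28, and 0.884 and 4.70 CPM on D45. Both D11 libraries of RET lay above all later ones, and SLC6A3 was lowest in D45 replicate A. ALDH1A1 was below 5 CPM in the neuron-like cells of every library.

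In neuron-like cells, 2 of the 7 genes rose and 1 fell between D11 and D28, where 7.80% of 19077 tested genes rose and 8.32% fell. SLC18A2 rose by a log2 fold change of 2.69 ± 0.474 (edgeR, adjusted p = 0.0112) and DDC by 2.20 ± 0.608 (adjusted p = 0.0489), while RET had a log2 fold change of −2.71 ± 0.366 (adjusted p = 0.00427). Serotonin neurons also use SLC18A2 and DDC, and in the neuron-like cells of D28 replicates A and B the serotonin markers TPH2 (3.00 and 38.3 CPM), SLC6A4 (1.21 and 16.9 CPM) and FEV (0.206 and 2.98 CPM) were higher in B, as SLC18A2 was, and their part in these results was not tested. TH differed by 0.09 ± 0.527 (adjusted p = 0.934). RET passed under every alternative. DDC did not pass without D11 replicate A (adjusted p = 0.220) or B (0.252), with doublets removed (0.0510), with a mitochondrial limit of 5% (0.0502) or with the coarser and finer clusterings (0.0583 and 0.0543). SLC18A2 did not pass without D11 replicate A (0.106) or B (0.0942).

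From D28 to D45, 0 of the 7 genes passed in neuron-like cells by edgeR or by DESeq2, where 2.80% of all genes passed in either direction, and 3 had an unadjusted p under 0.05 (DRD2, RET and ALDH1A1). Without D28 replicate A or without D28 replicate B, 2 genes passed. Between D11 and D45, 1 rose and 1 fell, where 14.5% of all genes rose and 18.1% fell. SLC18A2 rose by 2.77 ± 0.474 (adjusted p = 0.00560) and RET had a log2 fold change of −1.76 ± 0.351 (adjusted p = 0.00981). Both lost the call without D11 replicate A (adjusted p = 0.0523 and 0.0589) or B (0.0523 and 0.0723), and without D45 replicate A or B 3 genes passed.

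The 7 genes were concentrated in different clusters, and for TH the cluster changed with the day. On D11, a cluster whose leading genes included SLC5A7, NEFL and ISL1 held 75.6% and 77.8% of the TH-detected cells (replicates A and B), at 118 and 130.1 CPM. SLC5A7 is the choline transporter of cholinergic neurons, and ISL1 a factor of motor neurons among others. A further 12.9% and 10.5% lay in a neuron-like cluster led by ACTC1, CRABP1 and SIM1. The label's cell type, midbrain dopaminergic neurons, was therefore checked by cluster, and only 1 cluster met the marker rule for dopaminergic neuron-like cells, with 1 and 3 cells on D11.

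The leading genes of that cluster included SLC10A4, TAC1 and BARHL1, and it met the rule through markers that included LMX1B, EN1, KCNJ6 and SNCG, while NR4A2 and PITX3 did not count among its markers. BARHL1 is also known from neurons next to the midbrain dopamine area, so the cluster is called the SLC10A4 cluster here. It held 84.3% and 37.9% of the TH-detected cells on D28, at 165 and 205 CPM, and 4.78% and 14.7% on D45, at 127 and 352 CPM. With the libraries pooled, TH was highest in a neuron-like cluster led by TAC1, VGF and CALB2, at 240 CPM, which met the marker rule for GABAergic neuron-like cells through GAD1, GAD2, DLX1 and DLX5, against 193 CPM in the SLC10A4 cluster and 125 CPM in the SLC5A7 and ISL1 cluster. Of the first 2, the TAC1, VGF and CALB2 cluster was the higher in both D28 libraries (229.6 and 217 CPM). On D45 the SLC10A4 cluster was the higher in replicate A, and the 2 were nearly level in replicate B. The few cells of the SLC5A7 and ISL1 cluster in D28 replicate A (16 cells, 63 TH UMIs) stood at 321 CPM. Besides its GABA markers, the TAC1, VGF and CALB2 cluster had the glutamatergic markers SLC17A6 and EBF3 and the dopaminergic markers EN1 and SNCG. With libraries pooled it was highest in SLC18A2 (27.7 CPM). It came next after the SLC10A4 cluster in DDC (137 against 183 CPM) and SLC6A3 (8.66 against 8.78 CPM).

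On D45 more of the TH-detected cells lay elsewhere. A cluster led by GAD2, DLX5 and DLX1, which are genes of forebrain-type GABAergic neurons, held 34.7% and 23.3% of them, at 35.6 and 48.1 CPM of TH. The TAC1, VGF and CALB2 cluster held 9.87% and 24.0%, at 90.9 and 349 CPM. An unnamed cluster whose leading genes included HSPH1 and HSP70.2 held 21.7% and 7.29%, and a further neuron-like cluster, led by IL1RAPL2 and HS3ST4, 18.8% and 11.6%. The order of these clusters thus differed between D45 replicates, and the 2 replicates of D28 also drew their TH-detected cells from different clusters, with 17.8% in the GAD2 cluster in replicate B.

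DDC was spread more widely than TH. On D11, floor plate-like cells held 67.5% and 72.7% of the DDC UMIs, and the largest of their clusters stood at 30.3 CPM in both libraries. On D28 a floor plate-like cluster led by IFI6 and ISG15 stood at 53.5 and 55.5 CPM, and the SLC10A4 cluster at 126 and 275 CPM. On D45 the SLC10A4 cluster stood at 131 and 347 CPM. Much of the DDC signal on D11 was thus in cells that were not neuron-like.

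SLC18A2 was spread over several neuron-like clusters that differed by library. In D28 replicate B the GAD2 cluster stood at 42.2 CPM and held 50.4% of the cells with SLC18A2, while in D28 replicate A the SLC10A4 cluster held 59.7% of them at 8.33 CPM. On D45 the TAC1, VGF and CALB2 cluster stood at 15.2 and 38.9 CPM. On D28 SLC6A3 lay mostly in the SLC10A4 cluster, which held 84.8% and 74.2% of the cells with it, at 7.30 and 13.0 CPM. In D28 replicate B that share was well above the cluster's share of the TH-detected cells.

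RET changed its cells between days. On D11 the SLC5A7 and ISL1 cluster held 70.1% and 61.9% of the RET-detected cells, at 80.4 and 78.9 CPM. On D28 the IFI6 and ISG15 floor plate-like cluster held 56.0% and 68.1% of them, at 22.7 and 19.4 CPM. On D45 the TAC1, VGF and CALB2 cluster stood at 40.8 and 87.2 CPM.

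DRD2 changed its cells between days. Neuron-like cells held 255 of 908 and 292 of 857 DRD2 UMIs on D11, then 379 of 612 and 419 of 799 on D28, with 593 of 1648 and 928 of 2489 on D45, so most lay in neuron-like cells only on D28. In D28 replicate A the SLC10A4 cluster held 77.8% of the cells with DRD2, and in replicate B 26.0%. On D45 the astrocyte-like cluster held 38.6% and 44.1% of the DRD2 UMIs, at 25.3 and 30.8 CPM, and a small cluster led by CDC20B and FAM216B, genes of multiciliated cells, stood at 50.7 and 45.4 CPM. Within neurons the SLC10A4 cluster reached 29.2 and 70.3 CPM on D45. ALDH1A1, in contrast, stood highest on D28 in an unnamed cluster led by CNMD, ALDH1A1 and C1QL4, at 53.8 and 73.4 CPM, which held 47.4% and 62.7% of the cells with the gene. On D45, fibroblast-like cells held 43.8% and 69.5% of the ALDH1A1 UMIs.

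**Figure D2:**
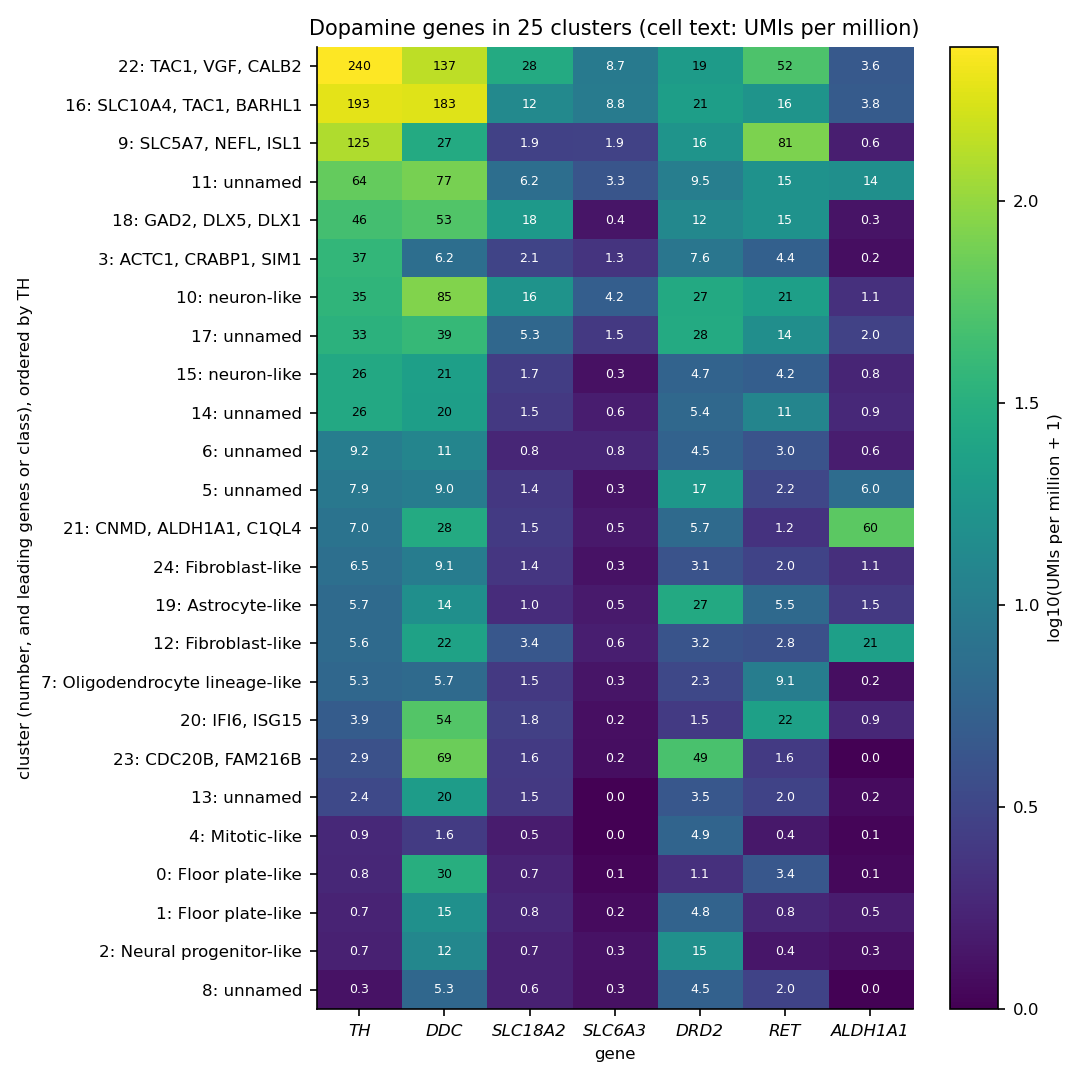
Levels of the 7 genes over the clusters in CPM, with clusters named by number and by leading genes or class. With libraries pooled, TH is highest in the clusters led by TAC1, VGF and CALB2 (240 CPM) and by SLC10A4, TAC1 and BARHL1 (193 CPM). That order was the other way round in D45 replicate A, and these clusters were nearly level in D45 replicate B. ALDH1A1 peaks in a cluster led by CNMD that is not neuron-like.

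At 2000 UMIs per cell, TH was detected in 1.60% and 1.81% of cells on D11 (exact 95% binomial intervals 1.39% to 1.83% and 1.60% to 2.04%), 7.04% and 5.27% on D28, and 3.01% and 5.81% on D45. Intervals here cover counting error only. The day means were 1.71% ± 0.149 (SD, n = 2), 6.15% ± 1.25 and 4.41% ± 1.99. The D11 libraries lay below all later ones, and the D28 and D45 libraries overlapped. An exact permutation test of 2 libraries against 2 cannot reach the threshold, so none is given for shares.

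Without thinning, the TH shares were 4.45% and 4.83% on D11, then 15.8% and 14.2% on D28, with 9.38% and 15.1% on D45. In classes that should lack TH, the thinned share was 0.0877% and 0.295% of mitotic-like cells on D11 and 1.01% and 1.82% (D28) and 0.817% and 1.79% (D45) of fibroblast-like cells. Median depths before thinning were 11818 and 12789 UMIs in the former and 12075, 15139.5, 11650.5 and 12405 UMIs in the latter. The TH shares over all cells were above the shares of these classes in every library. The mitotic-like class met its marker rule through genes that included TOP2A and CENPF, but its leading genes included MECOM, DBX1 and WNT8B. The D11 cluster led by TOP2A, CKAP2 and DLGAP5 was left unnamed and is not in that class.

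Most TH-detected cells held few TH molecules. Before thinning, 129 and 173 cells on D11, then 294 and 179 on D28, and in the D45 libraries 58 and 173, held 5 or more TH UMIs, with a highest count of 144 in D45 replicate B. The 50 cells with most TH held between 20.8% and 31.3% of the TH UMIs of a library. Of neuron-like cells, 14.2% and 15.3% had TH on D11, then 13.7% and 11.2% on D28, with 5.54% and 12.5% on D45, so the D11 shares within neuron-like cells were not below those of D28.

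At equal depth, co-detection of DDC with TH differed between D11 and later days. Of the TH-detected cells on D11, 10 of 209 and 15 of 266 also had DDC, which is 4.78% (interval 2.32% to 8.62%) and 5.64% (3.19% to 9.13%), against 3.19% and 3.60% of cells without TH. On D28 the shares were 34.8% (31.2% to 38.6%) and 28.5% (24.8% to 32.3%) against 7.58% and 8.46%. On D45 they were 9.87% (6.81% to 13.7%) and 26.0% (22.7% to 29.6%) against 2.45% and 5.26%. On D11 the intervals held the share of the cells without TH, and on D28 and D45 they lay above it in each library.

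Without thinning, 28.1% and 26.6% of D11 TH-detected cells had DDC, against 13.3% and 15.5% of cells without TH. The D11 shares were thus 2.11 and 1.71 times those of the others, as against 1.86 and 1.40 times on D28 and 2.07 and 2.12 times on D45. These unthinned ratios overlapped between D11 and each later day, unlike those at 2000 UMIs. Within neuron-like cells on D11, 4.26% and 6.33% of TH-detected and 4.67% and 3.74% of TH-undetected cells had DDC, while on D28 it was 37.1% and 32.6% against 9.50% and 10.7%. DDC was found in 0.380% and 0.589% of mitotic-like cells on D11, and in 2.18%, 4.55%, 2.86% and 4.60% of fibroblast-like cells on D28 (A, B) and D45 (A, B). The D45 replicate A share of DDC over all cells, 2.67%, was at the level of that class, whereas its share in TH-detected cells was above it.

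SLC18A2 was found in 0 of 209 and 0 of 266 TH-detected cells on D11, and such counts of 0 (taken as up to 3 counts) allow shares of cells with a UMI at this depth of up to 1.44% and 1.13%. On D28 it was found in 3.39% and 3.95% of TH-detected cells against 0.583% and 1.01% of the others, and on D45 in 5.41% and 5.58% against 0.799% and 1.23%. Fibroblast-like cells had it in 0.503% and 0.409% (replicates A of D28 and D45) and in 0% and 0.575% (replicates B). Before thinning, 2.07% and 2.40% of D11 TH-detected cells held an SLC18A2 UMI, so absence on D11 cannot be stated at this depth.

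SLC6A3 was rare, and where it was found on D28 it was often with TH. It was detected in 3.08% and 2.74% of TH-detected cells on D28 against 0.152% and 0.143% of the others, and in 0.637% and 2.79% on D45 against 0.138% and 0.211%. Seen from the other side, 60.6% and 51.6% of cells with SLC6A3 on D28 and 12.5% and 45.0% on D45 also had TH. On D11 only 2 and 0 cells had both. Without thinning the TH-detected shares were 3.79% and 2.12% on D11 against 0.241% and 0.222% of the others, and 7.81% and 4.70% on D28 against 0.618% and 0.232%. These are ratios of 15.8 and 9.54 on D11 and of 12.6 and 20.3 on D28, which overlapped. Fibroblast-like cells had SLC6A3 in at most 0.168% in any library.

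RET showed the opposite order. On D11 it was found in 8.61% and 11.3% of TH-detected cells (intervals 5.18% to 13.3% and 7.74% to 15.7%) against 0.849% and 1.05% of the others. On D28 the shares were 4.31% and 2.06% against 2.11% and 1.89%, and on D45 3.82% and 10.5% against 1.91% and 2.34%. The D11 intervals lay far above the TH-undetected share, whereas in D28 replicate B and in D45 replicate A the TH-undetected share was within or close to the interval's lower end. Mitotic-like cells had RET in 0.146% and 0.0842% on D11, and fibroblast-like cells in 0.136% to 1.82% later.

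DRD2 was found in 0.478% and 2.63% of TH-detected cells on D11, then 4.01% and 3.26% on D28, with 3.50% and 6.20% on D45, against 0.997% and 0.729%, 1.06% and 1.25%, and 2.23% and 3.64% of the others. Mitotic-like cells had DRD2 in 0.877% and 0.758% on D11, while floor plate-like cells had it in 0.546% and 0.266% and neuron-like clusters with no more specific name in 2.36% and 2.94%, so the D11 share differed between classes. ALDH1A1 was found in 0 TH-detected cells of either D11 library, and in 1.08% and 0.515% on D28 against 1.49% and 0.535%. On D45 it was 0.955% and 1.24% against 0.197% and 0.536%. Fibroblast-like cells had ALDH1A1 in 1.23% to 3.69%, as a class that expresses the gene.

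Cells with several of the genes were few at equal depth. Of the TH-detected cells on D11, 86.1% and 81.6% had none of the other 6 genes. The shares were 58.9% and 67.6% on D28 and 80.6% and 63.3% on D45. This order depended on depth. The D11 shares fell to 42.4% and 48.9% in counts not thinned. D28 then had 40.8% and 51.0%, so the ranges of these days overlapped, while D45 had 62.3% and 48.0%. TH, DDC and SLC18A2 together were found in 0 and 0 cells on D11, 13 and 13 cells on D28, and 4 and 24 cells on D45. Without thinning these were 4 and 7, 99 and 123, and 22 and 117 cells.

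**Figure D3:**
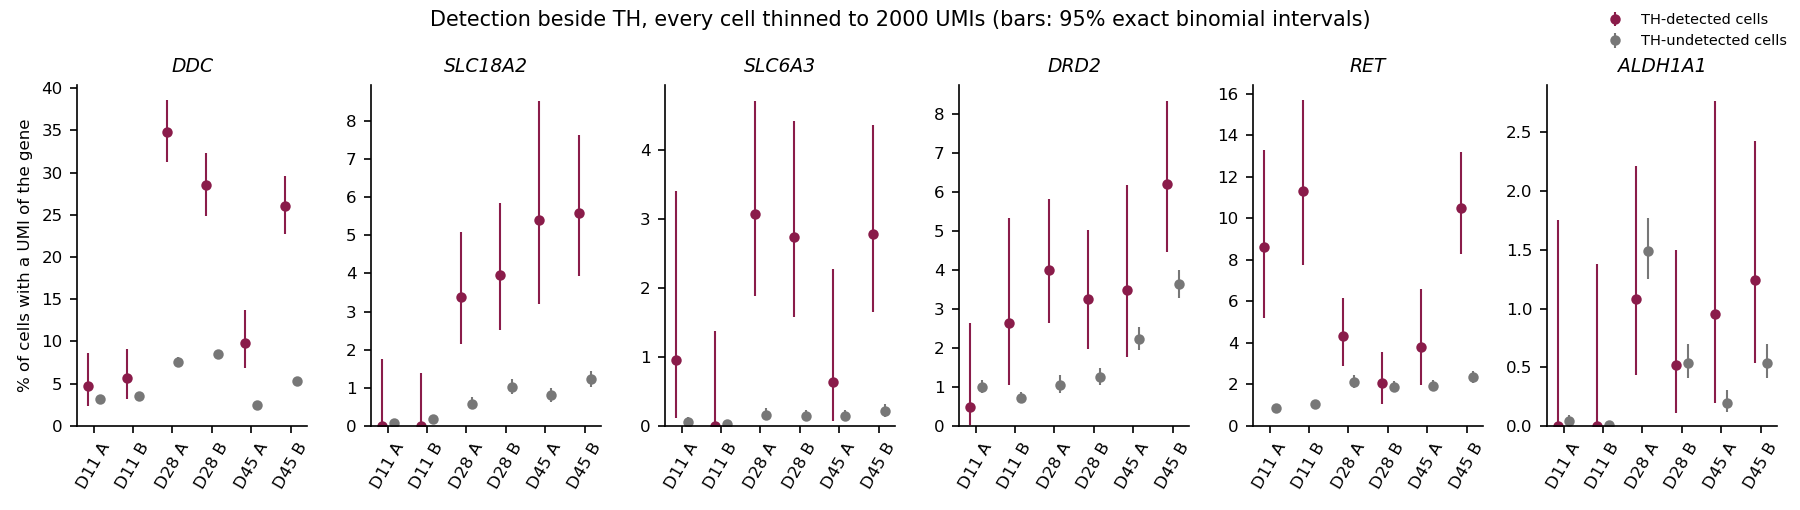
Share of TH-detected and of TH-undetected cells with each of the other 6 genes in each library, in percent of cells thinned to 2000 UMIs, with exact 95% binomial intervals. DDC stands apart in TH-detected cells on D28 (34.8% and 28.5%) but not on D11 (4.78% and 5.64%), and RET stands apart on D11 (8.61% and 11.3%).

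The same contrast was tested over libraries, with counts summed over TH-detected and TH-undetected cells of each library and the library as a block in edgeR (14708 genes tested). On D11, 1 of the 5 tested genes was higher in TH-detected cells and none was lower, where 29.7% of all genes passed in either direction. That gene was RET, at 67.0 CPM against 4.68 CPM (replicate A) and 73.3 CPM against 5.97 CPM (replicate B), a log2 fold change of 3.57 ± 0.304 (adjusted p = 9.3e-18). DDC stood at 26.3 against 16.9 CPM and at 35.7 against 18.8 CPM, a log2 fold change of 0.67 ± 0.298 that did not pass (adjusted p = 0.0824). The DDC value was much the same in cells thinned to 5000 UMIs (0.70, adjusted p = 0.0140) and in counts not thinned (0.68, adjusted p = 0.00824), where it did pass, as it did at 2000 UMIs with the size factors of DESeq2 (0.74, adjusted p = 0.0483), so the D11 call for DDC depends on depth and scaling. In counts not thinned 5 of the 6 genes other than TH passed on D11, and after thinning to 5000 UMIs 3 did. Over all genes, 10210 and 7228 passed in these settings, against 4373 at 2000 UMIs.

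On D28, 3 of the 5 genes were higher in TH-detected cells and none lower, where 10.9% of all genes were higher and 13.8% lower. DDC stood at 304 against 45.8 CPM and 310.5 against 59.8 CPM (log2 fold change 2.54 ± 0.116, adjusted p = 4.3e-33). SLC18A2 stood at 20.8 against 3.03 CPM and 20.6 against 6.02 CPM (2.23 ± 0.349, adjusted p = 1.9e-07). DRD2 stood at 22.3 against 5.66 CPM and 19.7 against 7.02 CPM (1.73 ± 0.306, adjusted p = 3.6e-06). RET (0.67, adjusted p = 0.106) and ALDH1A1 (0.04) did not pass at this depth, and RET did pass at 5000 UMIs (0.82, adjusted p = 0.00455). SLC6A3 was left out by the filter on low counts, with 22.3 against 0.933 CPM and 17.2 against 0.907 CPM, and without that filter its log2 fold change was 4.30 ± 0.480 (adjusted p = 3.8e-17).

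On D45, 4 of the 5 genes were higher and none lower, where 6.81% of all genes were higher and 8.97% lower. DDC stood at 79.6 against 14.8 CPM and 259.7 against 34.6 CPM (log2 fold change 2.74 ± 0.145, adjusted p = 3.9e-28), and SLC18A2 at 27.1 against 4.14 CPM and 31.0 against 6.51 CPM (2.40 ± 0.344, adjusted p = 4.3e-08). RET stood at 22.3 against 10.8 CPM and 66.7 against 13.5 CPM (1.90 ± 0.258, adjusted p = 8.5e-09) and rested on 1 library, since without D45 replicate B it was 1.00 (adjusted p = 0.359). ALDH1A1 (1.77 ± 0.575, adjusted p = 0.0227) was lost without D45 replicate A (1.12, adjusted p = 0.360), in counts not thinned (0.40, adjusted p = 0.342) and after thinning to 5000 UMIs (0.45, adjusted p = 0.441). With no library block 0 of these genes passed on D45. DRD2 did not pass (0.68, adjusted p = 0.108), and SLC6A3 without the filter was at 3.62 ± 0.596 (adjusted p = 8.5e-08).

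The contrast between TH-detected and TH-undetected cells itself differed between days for DDC and RET. For DDC it was larger on D28 than on D11 by 1.87 ± 0.272 on the log2 scale (adjusted p = 6.0e-08) and larger on D45 than on D11 by 2.07 ± 0.283 (adjusted p = 7.4e-09). For RET it was smaller, with differences of −2.90 ± 0.395 (adjusted p = 8.8e-09) and −1.68 ± 0.363 (adjusted p = 2.8e-04). Of all genes, 11.1% passed for D28 against D11 and 14.5% for D45 against D11. With at least 2 TH UMIs required of a TH-detected cell, the RET difference was −1.44 for D28 (adjusted p = 0.430) and 0.06 for D45 (adjusted p = 1.00), so neither passed. In counts not thinned the DDC differences were 1.29 (adjusted p = 0.00205) and 1.41 (adjusted p = 0.00103), and those of RET −3.10 and −2.08. Between D28 and D45, 0 of the 5 genes passed by edgeR or DESeq2, with 3 at an unadjusted p under 0.05, where 2.03% of all genes passed. In counts not thinned 3 genes passed, at 5000 UMIs 2, and with no filter on low counts, without D28 replicate A or without D45 replicate A 1 each. With no library block the DDC differences against D11 (adjusted p = 0.303 and 0.170) and the RET difference of D45 (0.213) did not pass.

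Within neuron-like cells (11028 genes tested), a comparison that leaves out the contrast of neurons with other cells, RET on D11 stood at 74.5 against 36.5 CPM and 82.3 against 41.2 CPM. Its log2 fold change was 1.04 ± 0.249 (adjusted p = 0.0114), and it was the only 1 of 4 tested genes to pass, where 1.53% of all genes were higher and 1.98% lower. The call was lost without D11 replicate A (1.01) or B (1.07), both at an adjusted p of 0.238, and with at least 2 TH UMIs (0.24, adjusted p = 0.935), and DESeq2 called 0 of the 4 genes. DDC (0.62, adjusted p = 0.376) did not pass, nor at 5000 UMIs (adjusted p = 0.129) or in counts not thinned (adjusted p = 0.102). DRD2 (−1.11, adjusted p = 0.340) did not pass, but was lower at 5000 UMIs (−1.37, adjusted p = 0.00493) and in counts not thinned (−0.82, adjusted p = 0.00808).

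On D28 all 4 tested genes were higher in TH-detected neuron-like cells, where 1.75% of all genes were higher and 1.49% lower. DDC stood at 327 against 61.8 CPM and 365 against 95.1 CPM (log2 fold change 2.21, adjusted p = 4.0e-15). SLC18A2 (1.62 ± 0.340, adjusted p = 0.00274) and RET (1.56, adjusted p = 0.00148) did not pass without D28 replicate A (0.89 and 1.09, adjusted p = 0.325 and 0.361). DRD2 (1.42, adjusted p = 0.00128) did not pass without D28 replicate B (1.29, adjusted p = 0.0520). DESeq2 kept 2 of the 4, and SLC18A2 and DRD2 were at an adjusted p of 0.135 and 0.117 there.

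On D45, 3 of the 4 were higher, where 5.25% of all genes were higher and 1.57% lower. DDC stood at 105 against 22.9 CPM and 328 against 65.3 CPM (log2 fold change 2.36, adjusted p = 8.6e-13). SLC18A2 (1.69, adjusted p = 0.00118) and RET (1.68, adjusted p = 7.5e-06) did not pass without D45 replicate B (2.26 and 1.02, adjusted p = 0.0992 and 0.588), nor did SLC18A2 with the coarser clustering (1.46, adjusted p = 0.0859). DESeq2 kept 1 of the 3. SLC6A3, left out by the filter on low counts, stood at 24.5 against 1.61 CPM and 20.9 against 1.97 CPM on D28, and at 4.65 against 1.09 CPM and 24.9 against 1.78 CPM on D45, where the 4.65 CPM of replicate A rested on 2 UMIs. Without that filter its log2 fold change was 3.64 ± 0.431 on D28 (adjusted p = 2.4e-14) and 3.38 ± 0.554 on D45 (adjusted p = 3.8e-07), and that of ALDH1A1 was 2.18 (adjusted p = 0.229) and 4.44 ± 1.06 (adjusted p = 0.00287), from few UMIs.

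Between days, the DDC contrast within neuron-like cells was larger on D28 than on D11 by 1.58 ± 0.328 (adjusted p = 0.00526) and larger on D45 than on D11 by 1.73 ± 0.339 (adjusted p = 0.00214), and that of DRD2 was larger on D28 than on D11 by 2.53 ± 0.587 (adjusted p = 0.0151). Of all genes, 1.41% passed for D28 against D11 and 1.97% for D45 against D11. Without D11 replicate A these became 1.12 (adjusted p = 0.404), 1.27 (0.239) and 1.97 (0.306), so none of the 3 passed, and the second did not pass without D45 replicate B either (adjusted p = 0.0971). In counts not thinned the DDC difference of D28 against D11 was 1.22 and did not pass (adjusted p = 0.0528). The D11 side of the DRD2 difference rested on 1 and 5 UMIs in TH-detected neuron-like cells, against 35 and 41 in the others. DESeq2 called 1 of the 4 genes for D28 against D11. The RET differences of D28 and D45 against D11 were 0.52 (adjusted p = 0.676) and 0.63 (adjusted p = 0.408), opposite in sign to those over all cells, and in counts not thinned they were 1.11 (adjusted p = 0.0377) and 0.97 (adjusted p = 0.0357). Between D28 and D45, 0 of the 4 passed by either tool and 0 had an unadjusted p under 0.05, where 0.154% of all genes passed.

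The transcription factors higher in TH-detected cells were also listed by day, with no test of the difference between days. Of the 9 factors of midbrain dopamine neurons listed (among them NR4A2, LMX1A, FOXA2 and EN1), 8 were tested. Over all D11 cells all 8 were lower in TH-detected cells, where 29.7% of all genes passed in either direction. Their median log2 fold change was −2.76, where the median of all genes was −0.17. ISL1 was higher (3.33), as it also was over all cells on D28 and D45. It was found in 43.1% and 43.2% of D11 TH-detected cells against 3.60% and 4.28% of the others, and in 0.770% and 3.26% against 0.268% and 2.19% on D28. Over all cells on D28 and on D45, DLX1, DLX5, GAD1 and GAD2, genes of GABAergic neurons, were higher in TH-detected cells too. Within D11 neuron-like cells ISL1 was found in 47.9% and 48.5% of TH-detected and 38.7% and 42.1% of TH-undetected cells.

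Within neuron-like cells 6 of the 8 tested factors were higher in TH-detected cells on D28 and 6 on D45, the same 6 on both days, where 1.75% and 5.25% of all genes were higher. They were EN1 (log2 fold change 3.08 on D28 and 2.91 on D45), EN2 (2.38 and 2.56), FOXA2 (1.41 and 2.23), NR4A2 (1.65 and 1.31), LMX1A (0.69 and 0.76) and FOXA1 (0.61 and 1.53). EN1, an engrailed factor of the midbrain, was found in 34.0% and 23.8% of TH-detected neuron-like cells on D28 against 3.69% and 5.65% of the others, and in 2.79% and 20.4% against 0.819% and 2.78% on D45. NR4A2 was found in 23.2% and 22.8% against 8.81% and 8.26% on D28, and in 3.72% and 6.75% against 7.31% and 7.25% on D11. Within D11 neuron-like cells none of the factors was higher and OTX2 was lower. SIM1, a hypothalamic factor, was lower in TH-detected neuron-like cells on all 3 days (log2 fold changes −1.98, −1.81 and −2.04), and so was SLC17A6, a vesicular glutamate transporter (−1.11, −0.71 and −1.05).

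**Figure D4:**
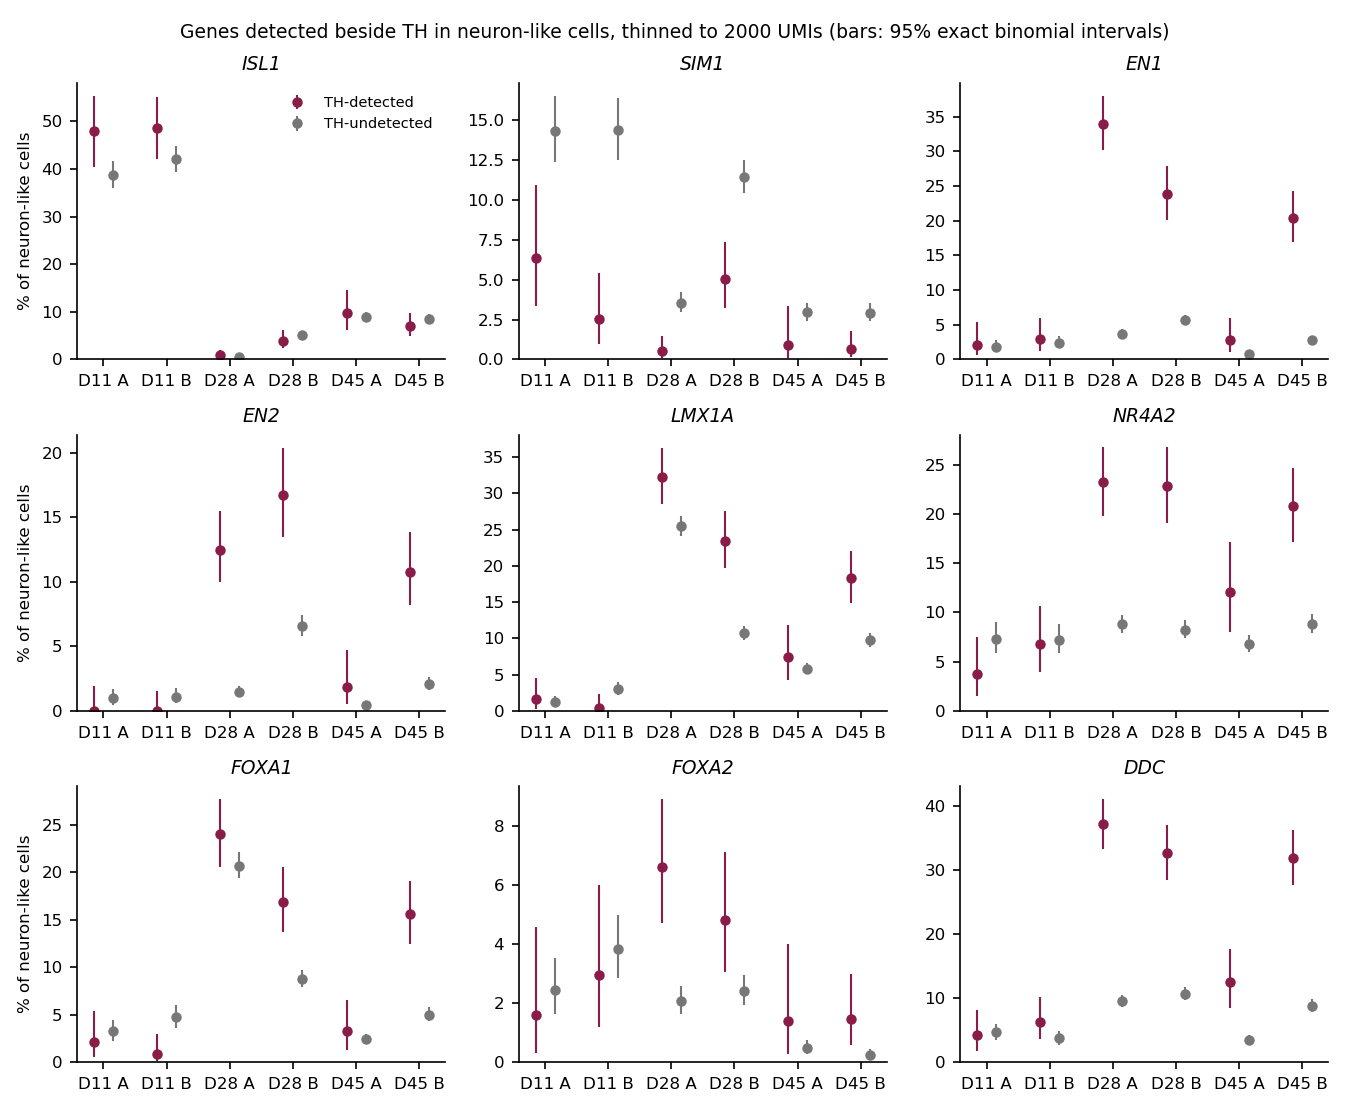
Share of TH-detected and of TH-undetected neuron-like cells with each of 8 transcription factors and with DDC, in percent of cells thinned to 2000 UMIs, for each library, with exact 95% binomial intervals. EN1 on D28 reaches 34.0% and 23.8% of TH-detected cells against 3.69% and 5.65% of the others, whereas on D11 ISL1 is found in 47.9% and 48.5% against 38.7% and 42.1%.

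The genes with the largest rise in TH-detected cells, TH left out, differed between D11 and later days. On D11 they were GPR22, CBLN4 (log2 fold change 4.77), RHOV, C1QTNF4 and DSCAML1 (4.32). GPR22, RHOV and C1QTNF4 had 1 UMI each in TH-detected cells of replicate A and 5, 4 and 3 in those of replicate B, too few for the size of a fold change, whereas CBLN4 had 35 and 74. On D28 they were GRP (4.43), CHRNB3 (4.34), CALB2 (3.02), CHRNA6 (3.00) and EN1 (2.94), and on D45 GRP (2.95), CHRNA6 (2.92), CHRNB3 (2.81), EN1 (2.76) and DDC (2.74), CHRNB3 with 3 UMIs in TH-detected cells of replicate A. CHRNA6 and CHRNB3 encode nicotinic receptor subunits known from midbrain dopamine neurons, GRP encodes gastrin-releasing peptide and CALB2 calretinin.

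Within neuron-like cells the D11 genes were LMO7, with only 2 and 5 UMIs in TH-detected cells, ENPP5 (log2 fold change 1.89), CBLN4 (1.81), RAI2 (1.67) and JAKMIP1 (1.55). On D28 they were GRP (4.47), EN1 (3.08), TPD52L1 (2.54), CALB2 (2.46) and EN2 (2.38), and on D45 EN1 (2.91), GRP (2.57), EN2 (2.56), DDC (2.36) and CHRNA6 (2.32). GRP, EN1 and EN2 thus appear on both later days within neuron-like cells, and CBLN4 appears on D11 in both comparisons.

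Over the 25 clusters, levels on the log2(CPM + 5) scale were compared as a description, with clusters that share libraries and depth. Of the 10260 genes compared, those with a name that reached 20 CPM in a cluster, SYNGR3 (Pearson's r = 0.971), CDK5R2 (0.964), CLEC2L (0.959), TTC9B (0.959) and VGF (0.955) were most like TH. The other 6 genes were less like it, with SLC6A3 at 0.831, RET at 0.805, SLC18A2 at 0.755, DDC at 0.646, DRD2 at 0.427 and ALDH1A1 at 0.122. DDC was most like CDKL2 (0.859), PITPNA (0.839), SERPINB6 (0.830), P2RX5 (0.823) and DHRS13 (0.808).

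SLC18A2 was most like TMEM196 (r = 0.912 over the same 25 clusters), DIRAS2 (0.906), GABRA5 (0.901), LGI2 (0.882) and MAL2 (0.880). RET was most like PCDHA13 (0.828), SYNGR3 (0.812), EEF1A2 (0.808), TH (0.805) and PTPRR (0.804). SYNGR3 was thus on the list of both TH and RET.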

How the data were processed

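Single-cell libraries of 3 days with 2 replicates each were analysed from the deposited UMI count matrices. Per the file headers the authors counted UMIs with Cell Ranger 8.0.1, and per the labels the build was Sscrofa11.1. The deposited counts were not normalized and held the barcodes called as cells, without the study's limits on cells, and Seurat 4.3.0 is named in the submitters' processing notes. The annotation release used for counting is not given in the sources used here. Cells with 200 to 7000 detected genes and at most 10% mitochondrial UMIs were kept, which left 102940 of 104820 barcodes.

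Depth per cell is given in the report and sets the detection limits. For shares of cells and for the contrast by TH, cells with 2000 or more UMIs were thinned to 2000 UMIs. Clustering with scanpy 1.11.5 (2000 variable genes, of which the 1995 that are not dopamine genes were used, 30 principal components, 20 neighbours, Leiden resolution 0.8 with igraph 0.11.9, seed 1) gave 25 clusters. Clusters were named from marker lists, with at least 3 markers found in at least 10% of cells and 1.5-fold over other cells with 5 CPM added. The rule's limits follow earlier work on these data. Doublets were scored against simulated doublets at 0.4% per 1000 cells and kept in the main comparison (865, 1858, 817, 770, 1615 and 1358 cells called). Removing them was an alternative.

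Counts were summed per library, or per library and TH status over at least 20 cells, and tested over all genes in R 4.3.3 with the quasi-likelihood test of edgeR 4.0.16, after TMM scaling and with Benjamini-Hochberg adjusted p-values read at 0.05, and with the library as a block for TH status. The study compared days over cells, whereas sums per library were tested here because cells are not replicates. Alternatives were each library left out, DESeq2 1.42.0, edgeR with the size factors of DESeq2, no low-count filter, a block for the replicate letter, no library block, doublets removed, a mitochondrial limit of 5%, thinning to 2000 or 5000 UMIs or none, at least 2 TH UMIs, another seed and resolutions of 0.4 and 1.2. The tests were checked on simulated data.

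The 7 genes and the gene lists were chosen with earlier results of these data known. The genes named besides them are those of the lists, the 5 genes most correlated over clusters with TH, DDC, SLC18A2 and RET, among genes of 20 CPM or more in a cluster, and per day the 5 genes with the largest rise in TH-detected cells past the threshold and on the same side in both libraries. In the matrices 16266 genes carried a symbol, 844 were named through the RefSeq table and 13367 kept a number. MAOA and TPH1 were not found under these names and were not analysed here, and a few genes are left out of the text. Positions and promoters come from RefSeq on Sscrofa11.1. Plots were drawn with matplotlib 3.10.9 from python 3.11.15.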

Additional observations from a re-analysis of the deposited data

Results flagged for a closer look

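The contrast between TH-detected and TH-undetected cells, tested as an interaction with the day in edgeR with Benjamini-Hochberg adjustment, differed between days for 3 of the genes, which is why these results are listed. Over all cells, the RET contrast was lower on D28 than on D11 by a log2 difference of −2.90 (adjusted p = 8.8e-09) and lower on D45 than on D11 by −1.68 (adjusted p = 2.8e-04). With at least 2 TH UMIs required of a TH-detected cell neither passed (−1.44, adjusted p = 0.430, and 0.06, adjusted p = 1.00). RET was higher in TH-detected cells of both libraries on D11 and of both libraries on D45, but in D28 replicate B it stood at 10.3 CPM in TH-detected and in TH-undetected cells alike. Within neuron-like cells the RET differences had the opposite sign and did not pass. They were 0.52 for D28 (adjusted p = 0.676) and 0.63 for D45 (adjusted p = 0.408). Both passed in counts not thinned (1.11, adjusted p = 0.0377, and 0.97, adjusted p = 0.0357). Without D45 replicate B the D45 difference was −0.03.

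The DDC contrast over all cells was higher on D28 than on D11 by 1.87 (adjusted p = 6.0e-08) and on D45 than on D11 by 2.07 (adjusted p = 7.4e-09), and DDC was higher in TH-detected cells in 6 of 6 libraries. Within neuron-like cells the DDC difference was 1.58 for D28 (adjusted p = 0.00526) and 1.73 for D45 (adjusted p = 0.00214). DRD2 differed by 2.53 for D28 against D11 within neuron-like cells (adjusted p = 0.0151), with only 1 and 5 UMIs in TH-detected cells on D11. These 3 did not pass without D11 replicate A (adjusted p = 0.404, 0.239 and 0.306), and the first did not pass in counts not thinned (1.22, adjusted p = 0.0528).

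The clusters that held the TH UMIs differed between the days compared. On D11, neuron-like clusters with no more specific name held 94.7% and 90.3% of the TH UMIs, and the cluster led by SLC10A4 and TAC1, which held 84.6% and 50.8% of them on D28, had 1 and 3 cells on D11. The part of this shift between clusters in the differences above was not tested.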

How the results depend on the processing

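Depth limits the rarer genes. SLC6A3, SLC18A2 and ALDH1A1 had few UMIs in TH-detected cells, group sums at or under 3 counts carry no fold change for these genes, and a share of 0 bounds only the cells with a UMI. With 2 libraries per day, a fit without 1 library assumes that the library left alone varies like the others. Of the settings tried for the named genes, 230 of 273 values for whole organoids, 279 of 312 for neuron-like cells by day, 230 of 258 for TH-detected cells and 218 of 258 for TH-detected neuron-like cells kept their direction and their side of the threshold. Of the shares of cells with each gene and with TH, 95 of 165 values stayed within the spread between replicates and 70 moved. The cause of the changes was not tested.

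The labels do not say whether the replicate letters pair the libraries. Deviations of same-lettered libraries correlated at −0.321, 0.048 and −0.196 over whole organoids and at −0.208, 0.076 and −0.117 in neuron-like cells. These correlations have no reference value from libraries known to share a batch, so they cannot decide the pairing. With the replicate letter as a block (replicate block), 3314 genes passed for D28 against D11 and 628 for D45 against D28 in whole organoids (5131 and 2086 without it), and 1920 and 0 in neuron-like cells (3075 and 534). Under that block SLC6A3 (adjusted p = 0.0672), DRD2 for D45 against D28 (0.0690) and DDC in neuron-like cells (0.0653) did not pass.

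Leaving out each library moved the number of genes past the threshold in whole organoids between 1112 and 10545 (D28 against D11), 0 and 10003 (D45 against D28) and 2804 and 12286 (D45 against D11). In neuron-like cells it moved between 493 and 7880, 0 and 8827, and 1543 and 10613. For TH-detected cells it moved between 2479 and 4482 (D11), 2067 and 3780 (D28), and 651 and 2297 (D45), from 4373, 3630 and 2320 with all libraries. For the differences of D28 and D45 against D11 it moved between 793 and 1745 and between 1045 and 2186 (1630 and 2129). In neuron-like cells it moved between 58 and 521, 193 and 425, and 22 and 910 (387, 357 and 752), and for the differences between 43 and 193 and between 58 and 313 (156 and 217).

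DESeq2 called 4353 genes for D45 against D28 in whole organoids and 2771 in neuron-like cells. It called 2120 genes on D28 and 1097 on D45 in TH-detected cells, 975 and 1349 for the differences, 144, 96 and 206 in TH-detected neuron-like cells, and 49 and 65 for their differences. In neuron-like cells, D45 against D28 gave 2040 genes with no filter on low counts, 1007 at resolution 0.4 and 337 at resolution 1.2. After thinning, 1338 genes passed for D45 against D28 in whole organoids, and 1720 for D28 against D11 in neuron-like cells.

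With no library block, 2522, 841 and 10 genes passed for TH-detected cells on D11, D28 and D45 and 287 and 477 for the differences, and 3, 0 and 0 in neuron-like cells with 0 and 0 for the differences. Without thinning these were 10210, 7837 and 5589, then 5792 and 7099, then 3298, 895 and 1630, and 773 and 1084. At 5000 UMIs they were 7228, 6349 and 4263, then 3215 and 4323, with 1479 for neuron-like cells on D11 and 424 and 502 for their differences. With at least 2 TH UMIs they were 1976 and 1988 on D11 and D28, then 587 and 694, with 158 and 1719 for neuron-like cells on D11 and D45 and 409 for the difference of D45 against D11. Resolution 0.4 gave 110 for neuron-like cells on D45.

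The mean share of cells with TH was 4.64%, 15.0% and 12.3% without thinning (D11, D28, D45) and 2.98%, 10.4% and 7.76% at 5000 UMIs. The mean share of TH-detected cells with DDC was 27.3%, 42.9% and 25.1% in the same order without thinning, 12.8%, 39.4% and 19.4% at 5000 UMIs, and 4.01% on D11 with another seed. These shares rise with depth. For DDC the D45 mean was below that of D11 without thinning and above it at 5000 UMIs, and the day with the lowest TH share was D11 at each of these depths.

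Signs reversed in values that passed no test in the main comparison, apart from the RET difference of D45 against D11 over all cells, which was 0.06 with at least 2 TH UMIs. Ranges here are over the fits that leave out 1 library. In whole organoids they were DRD2 for D28 against D11 (−0.12 to 0.07, and 0.39 thinned), SLC18A2 for D45 against D28 (−0.55 to 0.25, and 0.12 thinned), RET for those days (−0.47 to 0.14, and 0.21 thinned), and TH (−0.04 to 1.28), DDC (−0.44 to 1.13) and RET (−0.21 to 0.40) for D45 against D11. In neuron-like cells they were TH for D28 against D11 (−0.48 to 0.49, and −0.00 thinned), SLC18A2 for D45 against D28 (−0.55 to 0.60, and −0.07 at resolution 1.2), and for D45 against D11 DDC (−0.33 to 1.89), SLC6A3 (−1.46 to 1.02), DRD2 (−0.25 to 0.56) and ALDH1A1 (−0.25 to 1.08, and −0.13 at resolution 0.4). In TH-detected cells they were ALDH1A1 on D28 (−0.26 to 0.15, with −0.27 not thinned, −0.01 with doublets removed, −0.04 with no filter and −0.17 at 5000 UMIs), RET on D28 (−0.00 to 1.08) and the DRD2 difference of D45 against D11 (0.08 at 5000 UMIs). In neuron-like cells they were DDC on D11 (−0.03 to 1.09) and the RET difference of D45 against D11 (−0.03 to 0.86). The negative ends of TH, DDC, SLC6A3 and DRD2 for D45 against D11 came without D45 replicate B.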

Other observations

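INS, the gene next to the 3′ end of TH on the same strand and 1575 bases away in the RefSeq annotation, was looked at after its values were seen. On D28 it was higher in TH-detected cells by a log2 fold change of 2.76 ± 0.888 (edgeR, adjusted p = 0.0136), from 6 and 3 UMIs in TH-detected and 3 and 19 UMIs in TH-undetected cells of replicates A and B. On D11 (5.13, adjusted p = 0.191) and on D45 (1.69, adjusted p = 0.323) it did not pass. These counts are small.

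TPH2, which makes serotonin's precursor, stood at 17.3 CPM over all cells of D28 replicate B and at 38.3 CPM in its neuron-like cells, against at most 3.07 CPM over all cells of any other library.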
